A study of Mus musculus with 2 samples.

Results

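The leukocyte integrin genes examined were the 9 rows of the splenic count table named Itgb2, Itgal, Itgam, Itgax, Itgad, Itgb1, Itga4, Itgb7 and Itgae, chosen by name out of 22791 genes. All 9 genes had at least 20 counts over both libraries, and 8 of them had at least 100. Spleens came from young adult male mice of the C57BL/6 strain (C57BL/6J in the study's methods), which were fasted overnight and then given acetaminophen (APAP, 300 mg/kg, i.p.) or 0.9% NaCl as vehicle (ctrl), and were taken after 30 h. Splenic RNA of the mice of each treatment was pooled, and each pool gave 1 library by massive analysis of cDNA ends (MACE), a sequencing of mRNA 3′ ends. By the study's account the mice of a pool gave equal shares, and the APAP pool held more mice than the ctrl pool. The APAP library held 2890947 counts and the ctrl library 2735788. With 1 library each, no difference has a replicate check. The 95% intervals given below are exact but cover counting error only, not the differences between mice, and no p-value is given.

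Integrins are membrane receptors built from 1 α and 1 β subunit, and bind leukocytes to vessel walls, to matrix and to other cells. The β2 subunit (Itgb2, CD18) pairs in leukocytes with αL (Itgal, CD11a), αM (Itgam, CD11b), αX (Itgax, CD11c) or αD (Itgad, CD11d). The α4 subunit (Itga4) pairs with β1 (Itgb1) into a receptor of Vcam1 and fibronectin, or with β7 (Itgb7) into a receptor of the gut addressin Madcam1, while αE (Itgae, CD103) pairs with β7 and binds E-cadherin. In the mouse spleen, αM is carried by neutrophils, monocytes and macrophages, αX by dendritic cells, αD by macrophages of the red pulp, and αL, α4 and β7 by lymphocytes. The cell types of the spleen therefore differ in which of these receptors they carry.

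Counts were scaled with DESeq2 size factors, and the quotient of the scaled counts, APAP over ctrl, is called the normalised ratio. Of the 9 genes, 2 were higher in APAP by an interval wholly above 1, namely Itgad and Itgb1, and 1 was lower, namely Itgb7. The remaining 6 had intervals that include 1. Among all 12929 genes with at least 20 counts, 9.13% had an interval above 1 and 6.57% one below 1, and among the 8116 genes with at least 100 counts these shares were 11.5% and 7.68%. For the integrin genes they were 22.2% and 11.1%, from 2 and 1 genes. When library totals were used in place of the size factors, 4 integrin genes lay above 1 and 1 below, beside 14.0% and 4.33% of all genes. None of the 9 met the size rule, which asked for a normalised ratio of at least 2 in either direction besides an interval that excludes 1. That rule was met by 1.39% of all genes as higher in APAP and by 1.68% as lower. Ratios of the integrin genes ran from 0.688 to 1.45, with 5 above and 4 below 1. Among all genes with at least 20 counts, 53.2% were above 1. The median log2 ratio was 0.11 for the integrin genes and 0.02 over all genes with at least 20 counts. Summed over the 9 genes, counts were 2850 in APAP and 2530 in ctrl, a normalised ratio of 1.01 (0.961 to 1.07).

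**Figure D1:**
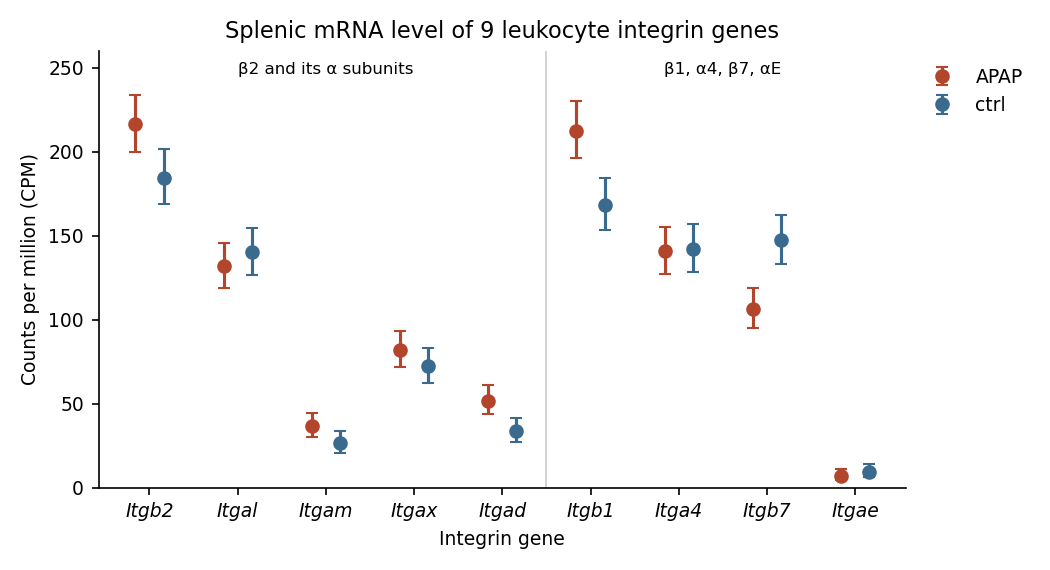
Level of each integrin gene in CPM (the count scaled by the library total), with the APAP library left of the ctrl library and bars for the exact 95% counting interval of the level. Itgb7 stood at 107 CPM in APAP and 147 in ctrl, Itgb1 at 212 and 168, and Itgad at 51.9 and 34.0.

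The starts of 3 of these genes are shown, which are those that hold the letters marked below, out of 5 genes with a window. They are the β1 and β7 genes, whose counts differed in opposite directions, and Itgam, one of the adjacent α genes on chromosome 7. Each window runs from 120 bases before to 30 bases after the RefSeq transcription start on the coding strand (GRCm38.p6, mm10). Capitals mark the letters GAGGAA or their reverse complement TTCCTC, the core bound by PU.1 and related ETS factors, which was chosen after the sequences were seen.
Itgb7, chr15:102231906-102232055, minus strand: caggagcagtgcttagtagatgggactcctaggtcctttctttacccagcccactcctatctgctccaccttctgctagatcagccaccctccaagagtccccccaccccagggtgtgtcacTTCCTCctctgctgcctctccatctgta
Itgb1, chr8:128685534-128685683, plus strand: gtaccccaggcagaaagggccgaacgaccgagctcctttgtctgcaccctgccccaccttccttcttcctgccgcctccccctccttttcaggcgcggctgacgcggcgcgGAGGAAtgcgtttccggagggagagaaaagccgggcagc
Itgam, chr7:128062520-128062669, plus strand: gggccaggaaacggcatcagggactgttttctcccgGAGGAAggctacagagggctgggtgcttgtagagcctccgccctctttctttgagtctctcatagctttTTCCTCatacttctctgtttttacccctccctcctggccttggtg

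The letters occur on either strand in 4867 of 32851 such windows (14.8%), and in 3 of the 5 integrin genes that have a window. Because the letters were chosen after these windows were seen, the difference between these shares is no sign of enrichment. Itgb7, lower in APAP, carries them 2 bases after the start. Itgb1, higher in APAP, carries them 9 bases before it, and Itgam 84 and 15 bases before it. The windows of Itgax and Itga4 hold none, and no window was used for Itgb2, Itgal, Itgad and Itgae. A match of letters is a description of the window and not a binding site, and genes of either direction had one.

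In mm10 the α subunits of β2 lie on chromosome 7, all on the plus strand. Itgam (128062640 to 128118491), Itgax (128129547 to 128150657) and Itgad (128154376 to 128223816) follow each other with gaps of 11.1 and 3.72 kb and no other protein-coding gene between them. Itgal (127296260 to 127335138) lies 728 kb before Itgam, with 38 protein-coding genes between. The β subunits are elsewhere, with Itgb2 on chromosome 10 (77530252 to 77565708), Itgb1 on chromosome 8 (128685654 to 128733200) and Itgb7 on chromosome 15 (102215995 to 102231944, minus strand). Itga4 (79255426 to 79333123) lies on chromosome 2 and Itgae (73090583 to 73147446) on chromosome 11. MACE reads come from the last exon and its 3′ untranslated part. At this end Itgad shares exon sequence with Cox6a2 and Itga4 with Cerkl, both on the opposite strand. Cox6a2 had 15 counts in APAP and 11 in ctrl, and Cerkl 22 and 19. The strand setting of the counting is not given in the sources used here, so that reads of either partner could in part belong to the other.

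Itgb2 (ENSMUSG00000000290), the gene of the shared β2 subunit, had 625 counts in APAP and 505 in ctrl. Its level was 216 CPM (200 to 234) in APAP and 185 (169 to 201) in ctrl, the highest of the 9 genes in both libraries. The normalised ratio was 1.11 (0.989 to 1.25) and includes 1, but its interval lay above 1 with library totals (1.17, 1.04 to 1.32). Library totals raised the log2 ratio of every gene by 0.07. Itgal (ENSMUSG00000030830), whose product forms LFA-1 with β2 and binds ICAM proteins, had 381 and 383 counts in APAP and ctrl, or 132 and 140 CPM. Its ratio was 0.895 (0.775 to 1.03). Since the 4 α chains compete for the same β subunit, their counts are set against each other further on.

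Itgad (ENSMUSG00000070369), the αD gene, was the gene with the highest ratio of the 9. It had 150 counts in APAP, against 93 in ctrl, and levels of 51.9 CPM (43.9 to 60.9) and 34.0 CPM (27.4 to 41.6). The normalised ratio was 1.45 (1.11 to 1.90), and 8.53% of all genes with at least 20 counts had a higher one, or 3.66% of those with at least 100. In a whole spleen, more cells of a type and more RNA per cell cannot be told apart. Markers of red pulp macrophages moved in the same direction. All 10 listed marker genes were above 1, with 9 intervals above 1, none at 0 counts in either library and a summed level of 2700 CPM in APAP and 1761 in ctrl (ratio 1.46, 1.41 to 1.51). Per 1000 of these marker counts, Itgad had 19.2 in APAP and 19.3 in ctrl, a ratio of 0.996 with an interval from 0.762 to 1.31. Whether the level of Itgad followed that of the macrophages was not tested.

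Itgam (ENSMUSG00000030786), whose product forms Mac-1 or complement receptor 3 with β2, had 107 counts in APAP and 73 in ctrl, or 37.0 CPM (30.3 to 44.7) and 26.7 CPM (20.9 to 33.6). The ratio of 1.32 (0.971 to 1.80) includes 1 with the DESeq2 factors, but its interval lay above 1 with library totals (1.39, 1.02 to 1.89). Those totals raised every ratio, and 14.0% of all genes then had an interval above 1. With the listed pancreas genes taken out of the totals, the ratio of Itgam was 1.34 and its interval included 1. Neutrophils carry αM, and 10 of their 12 markers had a higher ratio than Itgam, whereas Csf3r (1.08, 0.673 to 1.74) and Ly6g (1.15, 0.483 to 2.79) had a lower one. All 12 markers were above 1, 9 with an interval above 1, none stood at 0, and their summed level was 3786 CPM in APAP and 1485 in ctrl (ratio 2.42, 2.34 to 2.51). The direction of that list was known from earlier results of these libraries. Itgam thus made up 9.78 counts per 1000 neutrophil marker counts in APAP and 17.97 in ctrl, a ratio of 0.544 (0.399 to 0.745). S100a8 and S100a9 supplied 78.3% of these marker counts in APAP and 79.5% in ctrl, and without both the ratio was 0.516 (0.375 to 0.712), an alternative added after seeing the data. The 2371 counts then left in APAP rest mainly on Ngp (818), Camp (528), Ltf (335) and Lcn2 (286), named after their values were seen. Cxcr2, named likewise, had a ratio of 1.88 (0.881 to 4.28). Against the summed monocyte markers (8 of 10 above 1, 6 intervals above 1, 4297 CPM in APAP and 3553 in ctrl, none at 0) Itgam had 8.61 and 7.51 per 1000, with a ratio of 1.15 (0.843 to 1.57). Against the red pulp macrophage markers that ratio was 0.905 (0.664 to 1.24). Lyz2 supplied 7836 of the 12422 monocyte marker counts in APAP and 6130 of 9719 in ctrl. The monocyte sum therefore rests mainly on Lyz2, which was named after its value was seen. The αM gene therefore differed by less than the summed neutrophil markers between these libraries. Its differences from the summed monocyte and red pulp macrophage markers lay within counting error. The part of any of these cells in the level of Itgam was not tested.

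Itgax (ENSMUSG00000030789), the αX gene, had 237 counts in APAP and 198 in ctrl, or 82.0 CPM (71.9 to 93.1) and 72.4 CPM (62.6 to 83.2). Its ratio was 1.08 (0.888 to 1.31). Of 9 markers of conventional dendritic cells, 4 were above 1, none had an interval above 1 and 1 had an interval below 1, none stood at 0, and the summed level was 691 CPM in APAP and 720 in ctrl (ratio 0.914, 0.858 to 0.973). Per 1000 of these counts, Itgax had 119 in APAP and 101 in ctrl, a ratio of 1.18 (0.962 to 1.45). Cd24a supplied 1364 of the 1999 marker counts in APAP and 1313 of 1969 in ctrl (0.935, 0.866 to 1.01). The sum and the values per 1000 therefore rest mainly on that gene. The interval below 1 was that of Ccr7 (0.747, 0.625 to 0.893). Both genes were named after their values were seen. No difference of Itgax was detectable at this depth, and the interval allows changes from 0.888 to 1.31.

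Itgb7 (ENSMUSG00000001281), the β7 gene, was the lowest of the 9 by ratio and the only one with an interval below 1. It had 308 counts in APAP, against 403 in ctrl, and levels of 107 CPM (94.97 to 119) and 147 CPM (133 to 162). The normalised ratio was 0.688 (0.591 to 0.7998), and 6.85% of all genes with at least 20 counts, or 2.58% of those with at least 100, had a lower one. Lymphocyte markers were lower as well. Of 13 T cell markers, 12 were below 1 and 8 had an interval below 1, with a summed level of 658 CPM in APAP and 833 in ctrl (ratio 0.751, 0.706 to 0.798). All 8 NK cell markers were below 1, 5 with an interval below 1 (230 CPM in APAP and 313 in ctrl, ratio 0.698, 0.630 to 0.774). All 9 B cell markers were below 1, 6 with an interval below 1, by a smaller margin (2555 CPM in APAP and 2889 in ctrl, ratio 0.841, 0.815 to 0.868), and no marker of the 3 lists stood at 0.

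Set against these sums, Itgb7 had 162 counts per 1000 T cell marker counts in APAP and 177 in ctrl, a ratio of 0.916 (0.778 to 1.08). For NK cell markers the ratio was 0.985 (0.819 to 1.18). Per 1000 B cell marker counts it had 41.7 in APAP and 51.0 in ctrl, and this ratio of 0.818 (0.700 to 0.954) lay below 1. The part of the lymphocytes in the lower level of Itgb7 was not tested. Itgae (ENSMUSG00000005947), which shares β7 and marks part of the T and dendritic cells, had only 21 counts in APAP and 26 in ctrl (7.26 and 9.50 CPM). Its ratio of 0.727 (0.389 to 1.34) had the widest interval of the 9, which is too wide at this depth to show a difference of that size. Itgal, carried by T cells in quantity, had 200 counts per 1000 T cell marker counts in APAP and 168 in ctrl. The ratio was 1.19 (1.02 to 1.40), and Itgal was set against T cell markers only. The intervals of these ratios to marker sums were not widened for their number, and those of Itgal and of Itgb7 against B cell markers end close to 1.

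Itga4 and Itgb1 are the chains of VLA-4. Itga4 (ENSMUSG00000027009) had 407 counts in APAP and 389 in ctrl, or 141 CPM (127 to 155) and 142 CPM (128 to 157), with a ratio of 0.942 (0.817 to 1.08). Itgb1 (ENSMUSG00000025809), whose product pairs with many α chains in blood, stromal and endothelial cells, had 614 counts in APAP, against 460 in ctrl, or 212 CPM (196 to 230) and 168 CPM (153 to 184). Its ratio was 1.20 (1.06 to 1.36), and 22.9% of all genes with at least 20 counts had a higher one. Platelet markers, from fragments of cells that carry β1, were higher too, with 6 of 6 measured genes above 1, 3 intervals above 1, none of the 7 listed genes at 0 and a summed level of 427 CPM in APAP and 302 in ctrl (ratio 1.34, 1.23 to 1.47). Ppbp supplied 556 of the 1233 platelet marker counts in APAP and 394 of 826 in ctrl, and Pf4 488 and 320. The platelet sum therefore rests mainly on these genes, which were named after their values were seen. Itgb1 had 498 counts per 1000 platelet marker counts in APAP and 557 in ctrl (ratio 0.894, 0.768 to 1.04). Against red pulp macrophage markers its ratio was 0.824 (0.725 to 0.937). Their part in the level of Itgb1 was not tested.

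**Figure D2:**
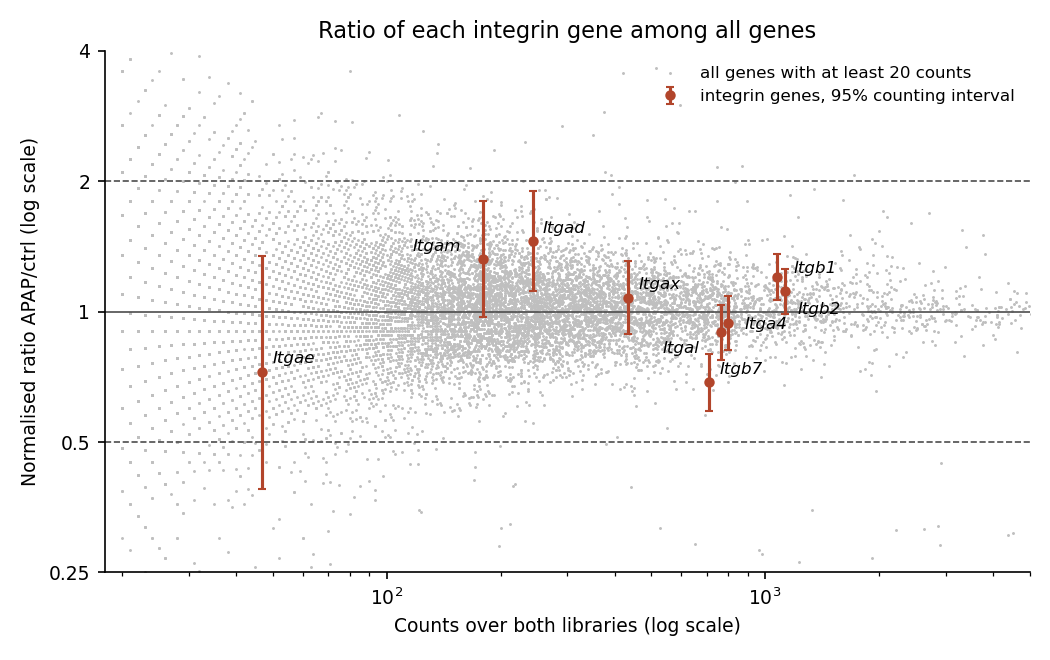
Normalised ratio APAP/ctrl (log scale) over the counts of both libraries (log scale) for all genes with at least 20 counts (grey, cropped to ratios from 0.25 to 4 and to 5000 counts) and for the 9 integrin genes (red, with 95% counting intervals). All 9 lie between the dashed lines at 0.5 and 2, with Itgad (1.45) highest and Itgb7 (0.688) lowest.

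MACE counts are not divided by transcript length, since a transcript is read at its 3′ end, so that counts of 2 integrin genes can be set in relation within a library. In APAP the order was Itgb2, Itgb1, Itga4, Itgal, Itgb7, Itgax, Itgad, Itgam and Itgae, from 216 to 7.26 CPM. Of 8 neighbouring genes in that order, 2 pairs did not differ beyond counting error, namely Itgb2 with Itgb1 and Itga4 with Itgal. In ctrl Itgb7 stood in the third place, followed by Itga4 and Itgal, and the order was otherwise the same. There, 5 neighbouring pairs did not differ beyond counting error, and Itgb7, Itga4 and Itgal lay close together at 147, 142 and 140 CPM. In APAP Itgb7 stood below both, and Itgal exceeded it 1.24-fold (1.06 to 1.44).

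Such relations need no scaling between libraries, and 16 pairs were compared in this way. Without adjustment 7 had a 95% interval that excludes 1, and 4 did so with intervals widened for 16 pairs. These 4 were Itgb7 against Itgb1 and against Itgb2, Itga4 against Itgb7, and Itgad against Itgal. The pairs share genes, and each follows from the ratios of its genes given above, so they are not separate results. The share of such calls among pairs of other genes was not computed. The largest difference was that of Itgb7 against Itgb1, with 0.502 counts of Itgb7 per count of Itgb1 in APAP and 0.876 in ctrl, a ratio of 0.573 (0.471 to 0.697, widened 0.427 to 0.767). Against Itgb2 the values for Itgb7 were 0.493 in APAP and 0.798 in ctrl (0.618, 0.509 to 0.749, widened 0.462 to 0.825). The β subunits thus differed in their proportions, and Itgb7 made up 19.9% of their summed counts in APAP (Clopper-Pearson interval 17.9 to 22.0) and 29.5% in ctrl (27.1 to 32.0). For Itgb1 against Itgb2, the difference lay within counting error (1.08, 0.908 to 1.28).

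The α4 chain can pair with either β1 or β7, and its counts lay between those of Itgb1 and Itgb7 in APAP and below both in ctrl. Per count of Itgb7 there were 1.32 counts of Itga4 in APAP and 0.965 in ctrl (ratio 1.37, 1.11 to 1.69, widened 1.003 to 1.87). Per count of Itgb1 there were 0.663 in APAP and 0.846 in ctrl (0.784, 0.649 to 0.946), an interval that included 1 when widened (0.591 to 1.04). Itgae against Itgb7 had a ratio of 1.06 (0.554 to 1.99), which leaves changes in both directions possible.

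Within the β2 group, the 4 α genes together had 875 counts in APAP and 747 in ctrl, or 1.40 and 1.48 per count of Itgb2 (ratio 0.946, 0.810 to 1.11). Their composition differed, with less αL in relation to αD in APAP. Itgal took 43.5% of the α counts in APAP (40.2 to 46.9) and 51.3% in ctrl (47.6 to 54.9). Itgad took 17.1% in APAP (14.7 to 19.8) and 12.4% in ctrl (10.2 to 15.03), Itgam 12.2% and 9.77%, and Itgax 27.1% and 26.5%. Itgad against Itgal had a ratio of 1.62 (1.20 to 2.20, widened 1.03 to 2.57). Itgam against Itgal stood at 1.47 (1.05 to 2.08) but included 1 when widened (0.887 to 2.47), as did Itgal against Itgb2 (0.804, 0.666 to 0.970, widened 0.606 to 1.07). Among the 3 adjacent genes Itgam, Itgax and Itgad, none of the 3 pairs had an interval that excluded 1, with ratios of 1.35 for Itgad against Itgax, 1.22 for Itgam against Itgax and 0.909 for Itgam against Itgad.

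**Figure D3:**
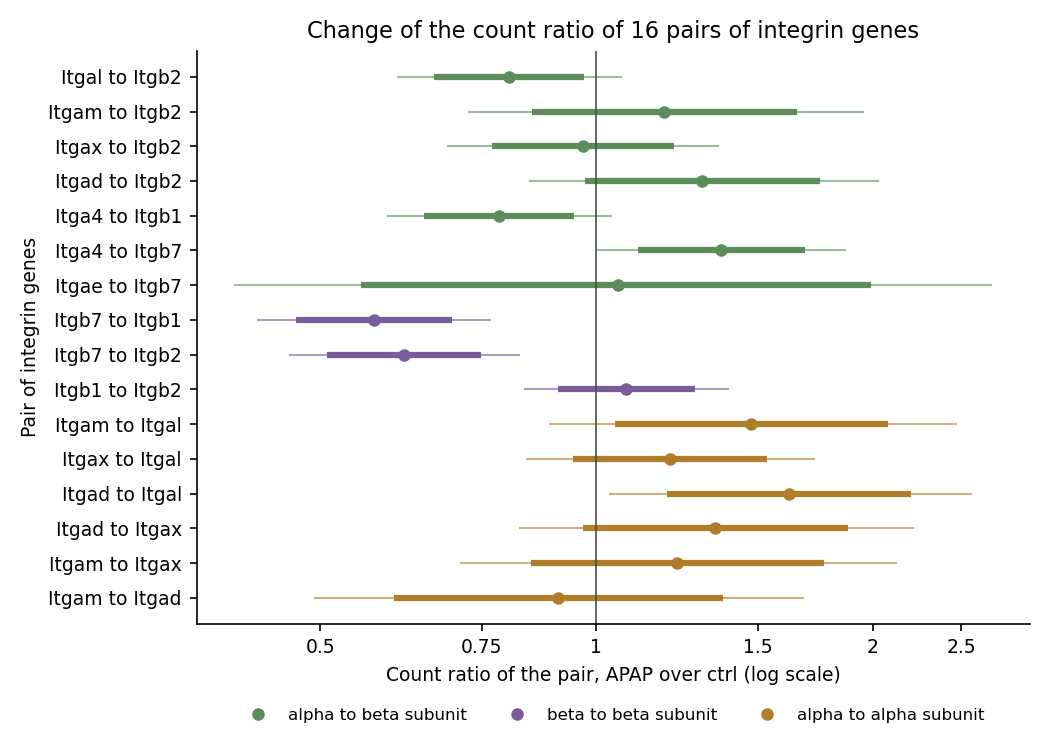
Count ratio of 2 integrin genes in APAP over the same ratio in ctrl (log scale) for 16 pairs, with thick lines for the 95% interval and thin lines for the interval widened for 16 pairs, coloured by the kind of subunits compared. Itgb7 against Itgb1 (0.573) and against Itgb2 (0.618) lie farthest to the left, and Itgad against Itgal (1.62) farthest to the right.

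Other integrin genes were measured beside these 9. Of 17 listed α and β genes, 16 had a row and 12 had at least 20 counts. Of these 12, 8 were above 1, 4 had an interval above 1 and 1 below, with a median log2 ratio of 0.14. Over all genes with at least 20 counts, these shares were 53.2%, 9.13% and 6.57%. The collagen receptor gene Itga10 met the size rule as lower, with 6 counts in APAP and 20 in ctrl (0.270, 0.0887 to 0.697). The 4 higher genes, named after their values were seen, included the vitronectin receptor chains Itgb5 (158 and 92 counts in APAP and ctrl, ratio 1.55, 1.19 to 2.02) and Itgav (157 and 105, ratio 1.35, 1.04 to 1.74). The others were Itga9, a partner of β1 (1.38, 1.05 to 1.82) and the platelet gene Itga2b (139 and 89, ratio 1.41, 1.07 to 1.86). Itgb3, the partner of Itga2b, had a ratio of 0.938 (0.741 to 1.19).

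Of 15 listed ligand genes, 9 were measured with at least 20 counts, 7 of them above 1 and 4 with an interval above 1. Over all genes with at least 20 counts, these shares were 53.2% and 9.13%. The median log2 ratio of the ligand genes was 0.31. Without the minimum count the median was 0.01, since the 5 ligand genes with fewer counts, Spp1, Icam1, Cdh1, Tnc and Icam5, named after their values were seen, all had ratios below 1. The β2 ligand gene Icam1 had 2 counts in APAP and 9 in ctrl (0.20, 0.021 to 0.966). Jam2, a junctional adhesion molecule bound by α4β1, met the size rule as higher, with 49 counts in APAP and 21 in ctrl (2.10, 1.24 to 3.69). The other 3 with an interval above 1, named after their values were seen, are ligands of β1 integrins. Vcam1 had 2072 counts in APAP and 1320 in ctrl (1.41, 1.32 to 1.51), Fn1, the fibronectin gene, 445 and 287 (1.40, 1.20 to 1.62) and Emilin1 265 and 128 (1.86, 1.503 to 2.32). Vcam1 is also expressed by red pulp macrophages, whose markers were higher as given above. The part of these or of other cells in the level of Vcam1 was not tested. Madcam1, the ligand of α4β7, had 67 counts in APAP and 75 in ctrl (0.804, 0.570 to 1.13).

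The machinery that switches integrins on from inside the cell had genes on both sides of 1, with calls near the share over all genes. Of 17 measured genes 8 were above 1, 2 had an interval above 1 and 1 below. Of all genes with at least 20 counts, 53.2% were above 1, 9.13% had an interval above 1 and 6.57% one below. The median log2 ratio of the machinery was -0.06, and its sign changed with library totals (0.01). The actin regulator Coro1a had 1975 counts in APAP and 2017 in ctrl (0.881, 0.828 to 0.938), and the small GTPase Rap1b 1140 and 1073 (0.956, 0.879 to 1.04). Tln1, the gene of talin, which binds β tails directly, was higher in APAP (798 and 587 counts, ratio 1.22, 1.10 to 1.36) and, like Rap1a (1.20, 1.07 to 1.36), was named after its value was seen. Of 13 inhibitors and tail binders 5 were above 1, none had an interval above 1 and 2 below, beside the same shares of all genes. Their median was -0.04 and stood at 0.03 with library totals. The tail-binding filamin gene Flna (0.996, 0.916 to 1.08) and the 14-3-3 gene Ywhaz (0.973, 0.889 to 1.06) had the most counts there.

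Downstream of bound integrins, 15 of 18 measured signalling genes were above 1, with 6 intervals above 1 and 2 below. Among all genes with at least 20 counts, 53.2% were above 1, 9.13% had an interval above 1 and 6.57% one below. The median log2 ratio of the signalling genes was 0.16. None of the signalling genes met the size rule. The ITAM adaptor genes Tyrobp (1741 counts in APAP and 1237 in ctrl, ratio 1.27, 1.18 to 1.36) and Fcer1g (1085 and 700, ratio 1.40, 1.27 to 1.54), which β2 integrins use in neutrophils and macrophages, were higher in APAP. The kinase gene Syk, which binds these adaptors and is also abundant in B cells, was lower (669 and 727, ratio 0.828, 0.745 to 0.921), and was named after its value was seen.

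**Figure D4:**
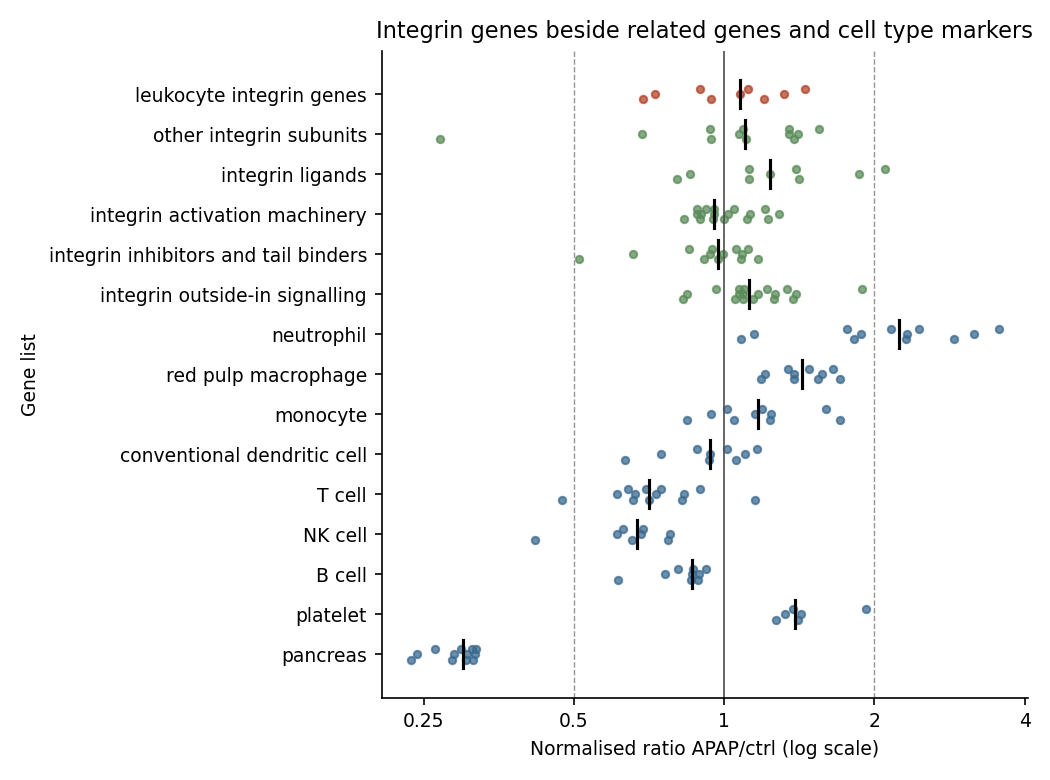
Normalised ratio APAP/ctrl (log scale) of each gene with at least 20 counts in the integrin set (red), 5 lists of related genes (green) and 9 lists of cell type markers (blue), with black ticks at the medians. The integrin genes spread on both sides of 1, from 0.688 to 1.45, with T, NK and B cell markers mostly below 1 and red pulp macrophage and neutrophil markers above it.

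Of the 9 marker lists, that of the pancreas, an organ beside the spleen, differed most between the libraries. All 12 listed genes were lower in APAP, with a summed level of 14680 CPM in APAP and 48994 in ctrl (ratio 0.285, 0.282 to 0.288). Their counts are part of the library totals, and so weigh on all CPM levels. Against the DESeq2 factors, library totals shifted every log2 ratio by 0.07, and totals without the listed pancreas genes by 0.02. With these genes taken out of the library totals, Itgad, Itgb1 and Itgb7 stayed on the same side of 1, and Itgb2 had an interval just above 1 (1.13, 1.004 to 1.27).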

How the data were processed

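Splenic RNA of APAP-treated and vehicle-treated mice was pooled per treatment, and 1 MACE library was made of each pool, so that each group has n = 1 and intervals cover counting error only. The authors removed duplicate reads by unique molecular identifiers, trimmed with cutadapt, clipped poly(A) tails, mapped to mm10 and counted with HTSeq. Per the submitters' processing notes DESeq2 was used as well. For the aligner, versions, annotation and strand setting, the sources used here give nothing. Globin RNA was not removed.

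Results rest on the authors' deposited gene counts, which are not normalised. The authors also deposited values headed TPM, which equal CPM (the count scaled by the library total), a signal that is the count over the size factor, and a further 3 mean columns, including a score that is the mean raw count. These were used for checks only. Library totals were 2890947 (APAP) and 2735788 (ctrl).

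Counts were scaled with DESeq2 size factors (1.05 for APAP and 0.949 for ctrl, DESeq2 1.42.0, R 4.3.3). Ratios are APAP over ctrl, with the exact 95% interval from the Clopper-Pearson interval of the APAP share of a gene's counts (Python 3.11.15, scipy 1.17.1). Levels carry exact Poisson intervals, and pairs of genes the exact conditional interval of the odds ratio, also widened to 99.7% for 16 pairs. Gene symbols were matched by the name column, and positions come from GENCODE M21 (mm10). Promoter windows come from RefSeq (GRCm38.p6). Named were all 9 integrin genes and, per related list, up to 4 genes that met the size rule or otherwise the 2 with the most counts. Others are stated as named after their values were seen. The integrin genes and the 14 lists were chosen with earlier results of these data known. The ratios to marker sums, with intervals not widened for their number, and the background at 100 counts were added after seeing the data. Alternatives were the upper quartile, edgeR's TMM factors (version 4.0.16), library totals, totals without haemoglobin and immunoglobulin or without listed pancreas genes, other minimum counts and other folds. The calculation was tested on simulated data.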

Additional observations from a re-analysis of the deposited data

How the results depend on the processing

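The DESeq2 factors were replaced by 5 other scalings, which shift every log2 ratio by the same amount, from -0.03 to 0.09. All 45 resulting ratios of the 9 integrin genes stayed within their counting intervals, and Itgad, Itgb1 and Itgb7 kept their calls under each. The number of integrin genes with an interval above 1 was 2, but 4 with library totals and likewise 4 once haemoglobin and immunoglobulin genes were left out of these totals, where Itgam (1.39 and 1.40) and Itgb2 (1.17 and 1.18) joined. With these scalings 14.0% and 15.4% of all genes had an interval above 1. Of the integrin calls, 80.0% were then above 1 (4 genes above and 1 below) in place of 66.7% (2 above and 1 below). These integrin shares rest on very few genes. Over all genes, 76.3% and 79.5% of the calls were above 1 in place of 58.1%. With TMM factors 48.7% of the calls over all genes were above 1, and with the upper quartile 48.9%. With totals without pancreas genes Itgb2 alone joined, which gave 3 genes. Other minimum counts and other folds changed no integrin count. Of 15 list medians, the integrin set included, 13 kept their sign under every alternative, and those of activation machinery and of inhibitors and tail binders did not (0.02 and 0.05 when haemoglobin and immunoglobulin genes were left out of the totals). No paired analysis was possible because only 1 pool per treatment was sequenced, and leaving out a library was not possible either. Depth limits Itgae most, with 47 counts in all.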
